A study of Arabidopsis thaliana with 6 samples.

Results

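The CIN-type TCP genes are a branch of the TCP transcription factor family, named after CINCINNATA of snapdragon, and Arabidopsis thaliana has 8 of them: TCP2, TCP3, TCP4, TCP5, TCP10, TCP13, TCP17 and TCP24. Their probe sets were found by locus code in the deposited table, and each gene had 1 probe set, so that 8 of the 22591 genes with a locus code are described here. The tested plants were the essp3 mutant, which the labels also call brm5 or brm-6 and the series title ties to the chromatin remodelling ATPase BRAHMA. The plants they were set against were the wild-type line ProβCG:GUS, in which a β-conglycinin promoter drives the GUS reporter. Leaves of 2-week-old seedlings from agar plates with 1.5% sucrose gave total RNA for 3 ATH1 arrays of each genotype, described as independent biological replicates. The seedlings grew under 16 h of light and 8 h of dark. The labels name the reporter for the wild type alone and do not give the lesion of the mutant, which is a single line.

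CIN-type TCP proteins bind DNA and move leaf cells from division to differentiation, so that loss of several of them gives large, crinkled leaves. Transcripts of TCP2, TCP3, TCP4, TCP10 and TCP24 are cleaved under guidance of the microRNA miR319, whereas TCP5, TCP13 and TCP17 lack the miR319 site. TCP4 protein is known to bind BRAHMA and to raise, together with it, the cytokinin response regulator gene ARR16. Whether the levels of the TCP transcripts themselves differ between the essp3 line and the wild-type line is the question these arrays can address.

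The deposited values are MAS5 signals, an intensity per probe set on a linear scale, and the authors scaled each array to a common mean. The share of probe sets with a Present call, the detection call of MAS5, ran from 56.4% to 60.2% on essp3 arrays and from 57.6% to 60.3% on those of wild type. The photosynthesis genes RBCS1A and RCA were Present on all 6 arrays, while STM, WUS and CLV3, which mark the shoot meristem, had no Present call. Of 4 root hair genes, 3 had no Present call and 1 had a Present call on a single essp3 array. The array names in the file header share a code within each genotype that differs between genotypes, so genotype cannot be told apart from whatever that code stands for, which the header does not say. The 25S ribosomal RNA control read from 371 to 483 on essp3 arrays and from 4149 to 7797 on wild-type arrays. The ratio of the 3′ to the 5′ GAPDH probe set ran from 1.44 to 1.70 on essp3 arrays and from 1.68 to 1.83 on wild-type arrays. The same ratio ran from 2.69 to 3.05 on essp3 arrays and from 2.41 to 2.90 on wild-type arrays for ubiquitin, and for actin from 6.47 to 14.4 on essp3 arrays and from 7.39 to 15.3 on wild-type arrays, so the 3 ratios overlapped between genotypes and did not differ in 1 direction. The part of these controls in the results below was not tested.

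TCP13, TCP10 and TCP3 rose in essp3 leaves, and no CIN-type TCP gene fell (0 also at an unadjusted p under 0.05 in limma). The change was 2.03-fold for TCP13, 1.54-fold for TCP10 and 1.43-fold for TCP3, by the fitted log2 signals. The other 5 genes did not pass an adjusted p of 0.05, the threshold used throughout, after Benjamini-Hochberg adjustment of limma's test over 13626 probe sets that were Present on at least 3 arrays. At an unadjusted p under 0.05 in limma, 5359 of these probe sets were called, 2695 higher and 2664 lower in essp3. The 3 rises among 8 genes make 37.5%, where 14.4% of all tested probe sets rose, 13.9% fell and 28.4% changed either way. Counted in either direction, the 37.5% is near the 28.4% over all tested probe sets. The members were chosen with earlier results of these data known, so the share is no test of the group. The median log2 fold change, always essp3 minus wild type, was 0.37 over the 8 genes and -0.01 over all tested probe sets. In bulk leaf RNA, a change in the number of cells that express a gene and a change in transcript per cell cannot be told apart.

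**Figure D1:**
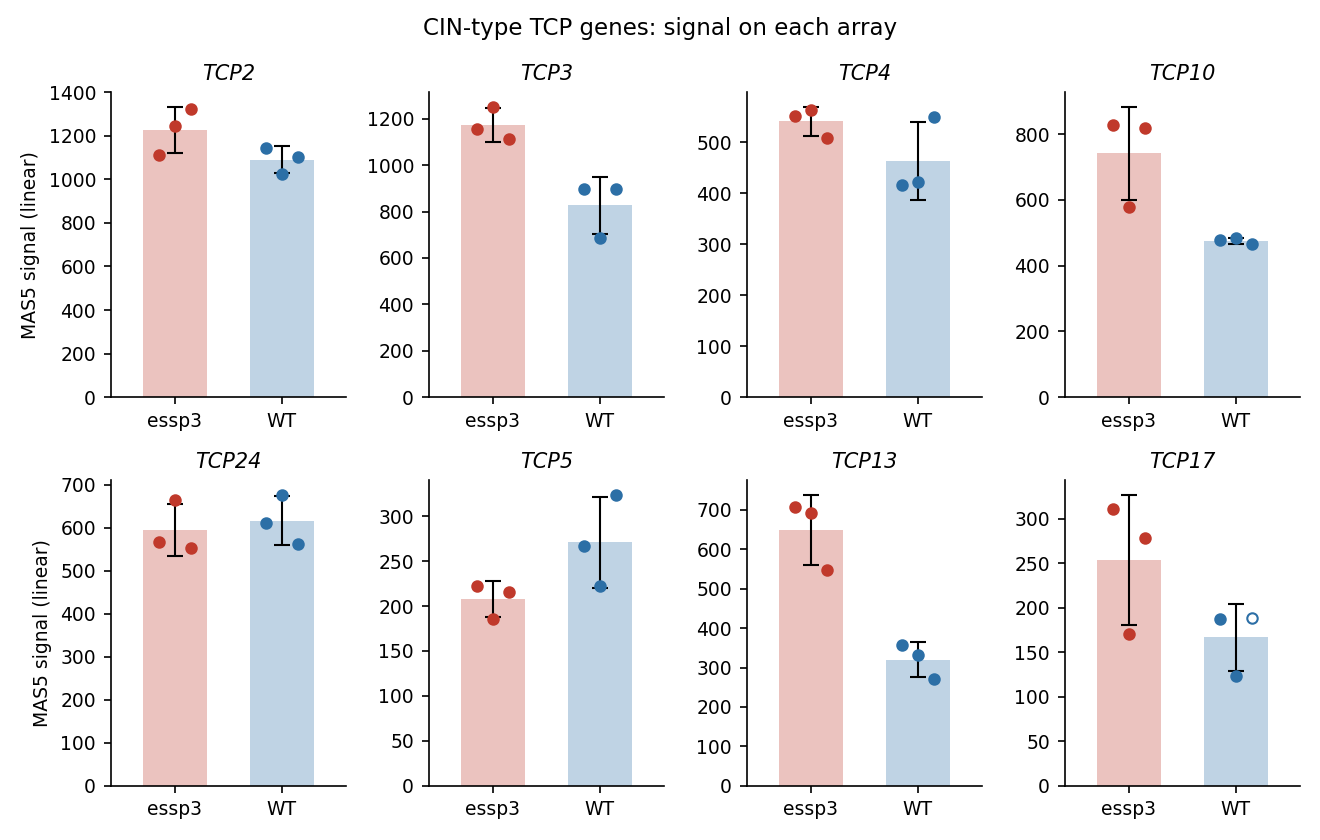
MAS5 signal (linear scale) of each CIN-type TCP gene on the 3 essp3 and the 3 wild-type arrays. Bars are group means, error bars the SD, filled points arrays with a Present call and the open point an array without one; the essp3 points of TCP3, TCP10 and TCP13 all lie above the wild-type points.

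TCP13 (AT3G02150), also called PTF1 after its description as a plastid transcription factor, read 708, 692 and 547 in essp3 leaves, against 357, 332 and 270.4 in wild-type leaves. The lowest essp3 array stood well above the highest wild-type array. The mean was 649 ± 88.9 in essp3 and 320.0 ± 44.7 in wild type (SD, n = 3 each), a log2 fold change of 1.02 (SE 0.18, 95% confidence interval 0.64 to 1.40, adjusted p = 0.000831). The value lay at percentile 95.8 of the log2 fold changes of all tested probe sets.

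TCP17 and TCP5 are the close relatives of TCP13, and the 3 genes are known to act together in leaf growth and in the growth responses of the hypocotyl. TCP17 (AT5G08070) read 311, 171 and 279 in essp3, against 187, 124 and 189 in wild type. The groups overlapped through essp3 replicate 2, and wild-type replicate 3 had no Present call. Its log2 fold change was 0.59 (SE 0.29, 95% confidence interval -0.03 to 1.20, adjusted p = 0.144), with 0.38 when wild-type replicate 2 was left out and 0.85 when essp3 replicate 2 was left out (adjusted p = 0.0564). TCP17 also had the widest spread of the 8 genes, with a coefficient of variation of 28.9% in essp3 and 22.4% in wild type. TCP5 (AT5G60970) read 223, 185 and 216 in essp3, against 267, 222 and 324 in wild type. The highest essp3 array and the lowest wild-type array nearly coincided, and the log2 fold change was -0.37 (SE 0.22, 95% confidence interval -0.85 to 0.11, adjusted p = 0.239), between -0.50 and -0.23 with an array left out.

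Among the genes under miR319 control, TCP10 (AT2G31070) read 829, 579 and 819 in essp3, against 479, 484 and 464 in wild type. All essp3 arrays lay above the wild-type arrays, which stayed within a coefficient of variation of 2.10%, against 19.1% in essp3. The mean was 742 ± 142 in essp3 and 476 ± 9.997 in wild type (SD, n = 3 each). The log2 fold change was 0.62 (SE 0.17, 95% confidence interval 0.26 to 0.99, adjusted p = 0.0140). The call ended without essp3 replicate 1 (adjusted p = 0.0646) or essp3 replicate 3 (adjusted p = 0.0557).

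TCP3 (AT1G53230), a factor known to repress boundary genes of the shoot, read 1154, 1253 and 1113 in essp3, against 898, 686 and 899 in wild type. The groups were again apart, with wild-type replicate 2 the lowest. The mean was 1174 ± 72.0 in essp3 and 828 ± 122 in wild type (SD, n = 3 each), and the log2 fold change was 0.51 (SE 0.15, 95% confidence interval 0.19 to 0.83, adjusted p = 0.0200). The call ended when essp3 replicate 2 was left out (adjusted p = 0.0875), when wild-type replicate 2 was left out (adjusted p = 0.0989), and also without the intensity trend of the variance (adjusted p = 0.0503).

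The remaining miR319 targets did not pass. TCP4 (AT3G15030), the best studied member and a promoter of leaf maturation, read 552, 564 and 508 in essp3, against 417, 423 and 551 in wild type. Wild-type replicate 3 fell among the essp3 arrays, and the log2 fold change was 0.24 (SE 0.17, 95% confidence interval -0.12 to 0.59, adjusted p = 0.320). TCP2 (AT4G18390) read 1112, 1247 and 1323 in essp3, against 1146, 1026 and 1101 in wild type, with a log2 fold change of 0.17 (95% confidence interval -0.12 to 0.46, adjusted p = 0.386). TCP24 (AT1G30210) read 568, 663 and 553 in essp3, against 610, 676 and 563 in wild type. Its arrays were interleaved, and the log2 fold change was -0.05 (95% confidence interval -0.38 to 0.28, adjusted p = 0.835). For TCP2 and TCP24 the intervals leave out a change as large as those fitted for TCP3, TCP10 or TCP13, whereas the interval of TCP4 holds the change fitted for TCP3.

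Grouped by miR319 control, 2 of the 5 target genes rose, with a median log2 fold change of 0.24. Of the 3 genes without the site 1 rose, with a median of 0.59. Of all tested probe sets, 14.4% rose and 28.4% changed either way. The medians are the values of TCP4 and TCP17, which did not pass. Whether the sets differ was not tested. The arrays of both genotypes did not overlap for 3 of the 8 genes (37.5%), each with essp3 above. Over all tested probe sets 42.7% did not overlap, and 21.1% had essp3 above. Taken in either direction, the share among the 8 genes is near the background and is no result about them. In the authors' deposited table the ratio of essp3 to wild-type means was 2.03 for TCP13, 1.56 for TCP10 and 1.42 for TCP3. These were the 3 members with an unadjusted p under 0.05 in the authors' deposited table, where 32.8% of the tested probe sets had one.

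Relatives within the group were also compared directly, by the log2 ratio of their signals within each array. The ratio of TCP13 to TCP5 was 1.67, 1.90 and 1.34 in essp3, against 0.42, 0.58 and -0.26 in wild type. The ratio of TCP17 to TCP5 was 0.48, -0.11 and 0.37 in essp3, against -0.51, -0.85 and -0.78 in wild type. In both pairs the genotypes were apart, by 1.39 (SE 0.30) and 0.96 (SE 0.21) on the log2 scale. For the ratios TCP13 to TCP17, TCP2 to TCP24, TCP3 to TCP4, TCP10 to TCP3 and TCP10 to TCP4 the genotypes overlapped. With 3 arrays a group the exact two-sided permutation test cannot go below p = 0.1, which both TCP5 pairs reached, and after adjustment over the 7 pairs the smallest p was 0.35, so no pair passed.

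**Figure D2:**
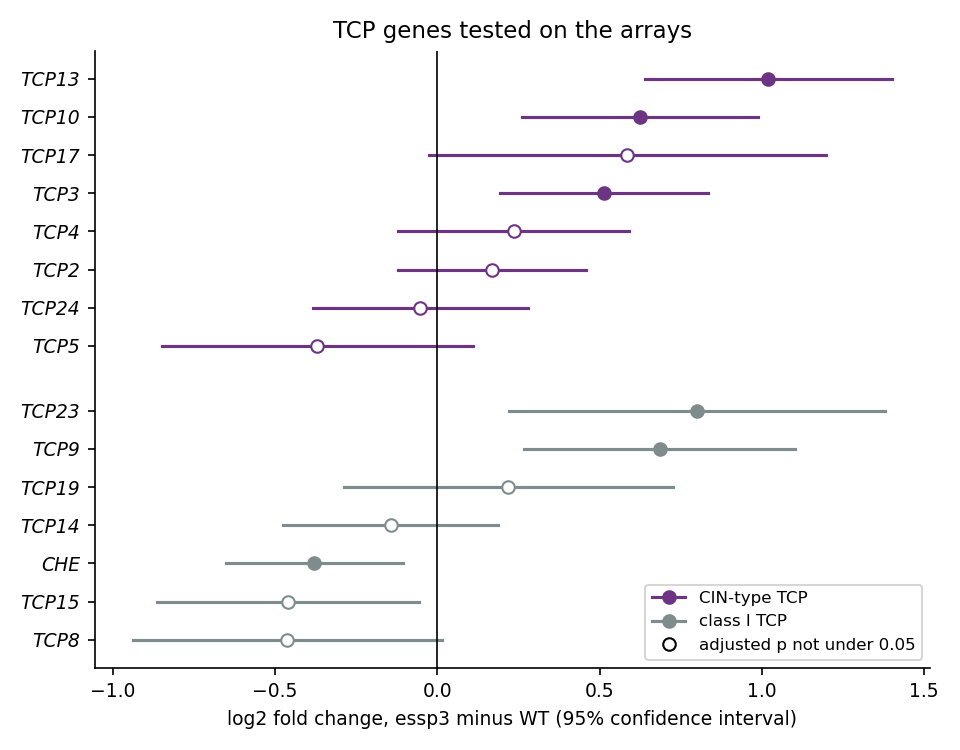
Log2 fold change (essp3 minus wild type) of the 8 CIN-type and the 7 tested class I TCP genes, with 95% confidence intervals from the limma fit; filled points passed an adjusted p of 0.05. The intervals of TCP13, TCP10 and TCP3 lie above 0, and class I genes lie on both sides of it.

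Class I TCP genes, the other large branch of the family, moved in both directions. Of 13 genes, 9 were on the array and 7 were tested. Of these, 2 rose, 1 fell and 4 did not pass, with a median log2 fold change of -0.14. The share called was 42.9%, against 37.5% among CIN-type TCP genes and 28.4% over all tested probe sets. Calls were thus not particular to the CIN-type branch. TCP9 read 322, 373 and 368 in essp3, against 205, 209 and 248 in wild type (log2 fold change 0.69, SE 0.19, adjusted p = 0.0175). TCP23 read 233, 239 and 201 in essp3, against 145, 147 and 99.5 in wild type, where replicate 3 had no Present call (log2 fold change 0.80, SE 0.27, adjusted p = 0.0397). CHE (AT5G08330), a repressor of the clock gene CCA1, read 2364, 2717 and 2599 in essp3, against 3735, 2986 and 3291 in wild type (log2 fold change -0.38, SE 0.13, adjusted p = 0.0381). TCP15, known to act with TCP14 in organ growth, had -0.46 (adjusted p = 0.0835), with -0.62 and a call when essp3 replicate 1 was left out (adjusted p = 0.0381) and -0.30 without essp3 replicate 3. With 1 array left out in turn, TCP9 did not pass without essp3 replicate 2, essp3 replicate 3 or wild-type replicate 2 (adjusted p up to 0.0722). TCP23 passed when wild-type replicate 1 was left out and in none of the other 5 fits (adjusted p up to 0.127), and CHE passed when wild-type replicate 2 was left out and in none of the other 5 (adjusted p up to 0.125). Whether the CIN-type and class I branches differ in their change was not tested. The 3 genes of the CYC/TB1 branch had no probe set matched by locus code, so they were not analysed here.

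Genes described as targets of CIN-type TCP proteins changed in 1 case. Of 7 such genes, 6 were tested. LOX2 rose and the others did not pass, and the median log2 fold change was 0.02. The share called was 16.7%, where 28.4% of all tested probe sets changed either way. LOX2, a lipoxygenase of jasmonate synthesis that TCP4 activates, read 7228, 6984 and 7875 in essp3, against 2094, 1918 and 2015 in wild type, a log2 fold change of 1.87 (SE 0.11, adjusted p = 1.3e-07). ARR16 read 215, 307 and 199 in essp3, against 112, 218 and 116 in wild type. Wild-type replicate 2 overlapped the essp3 arrays, and the log2 fold change was 0.74 (SE 0.31, 95% confidence interval 0.08 to 1.40 before adjustment, adjusted p = 0.0901). Without wild-type replicate 2 it was 1.05 (adjusted p = 0.0298). IAA3, an auxin response repressor raised by TCP3, had -0.18 (adjusted p = 0.557), with -0.43 and -0.056 when wild-type replicates 1 and 3 were left out. AS1, a MYB factor that keeps meristem genes off in leaves, had 0.15 (adjusted p = 0.688). The boundary genes CUC1, CUC2 and CUC3, which TCP3 holds down, and 4 KNOX meristem genes had no Present call on any array, with no signal above 116.

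TCP proteins repress through TOPLESS corepressors, which TIE proteins bring to them. Of 9 such genes, 4 were on the array and 3 were tested. Of these, 1 rose (33.3%), where 14.4% of all tested probe sets rose and 28.4% changed either way. TPR4, a TOPLESS-related corepressor, read 942, 986 and 975 in essp3, against 549, 610 and 520 in wild type, with no overlap. The fitted difference was 0.79 on the log2 scale (SE 0.14, adjusted p = 0.000977). TPR2 had 0.20 (adjusted p = 0.320) and TPL itself -0.07 (adjusted p = 0.741).

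**Figure D3:**
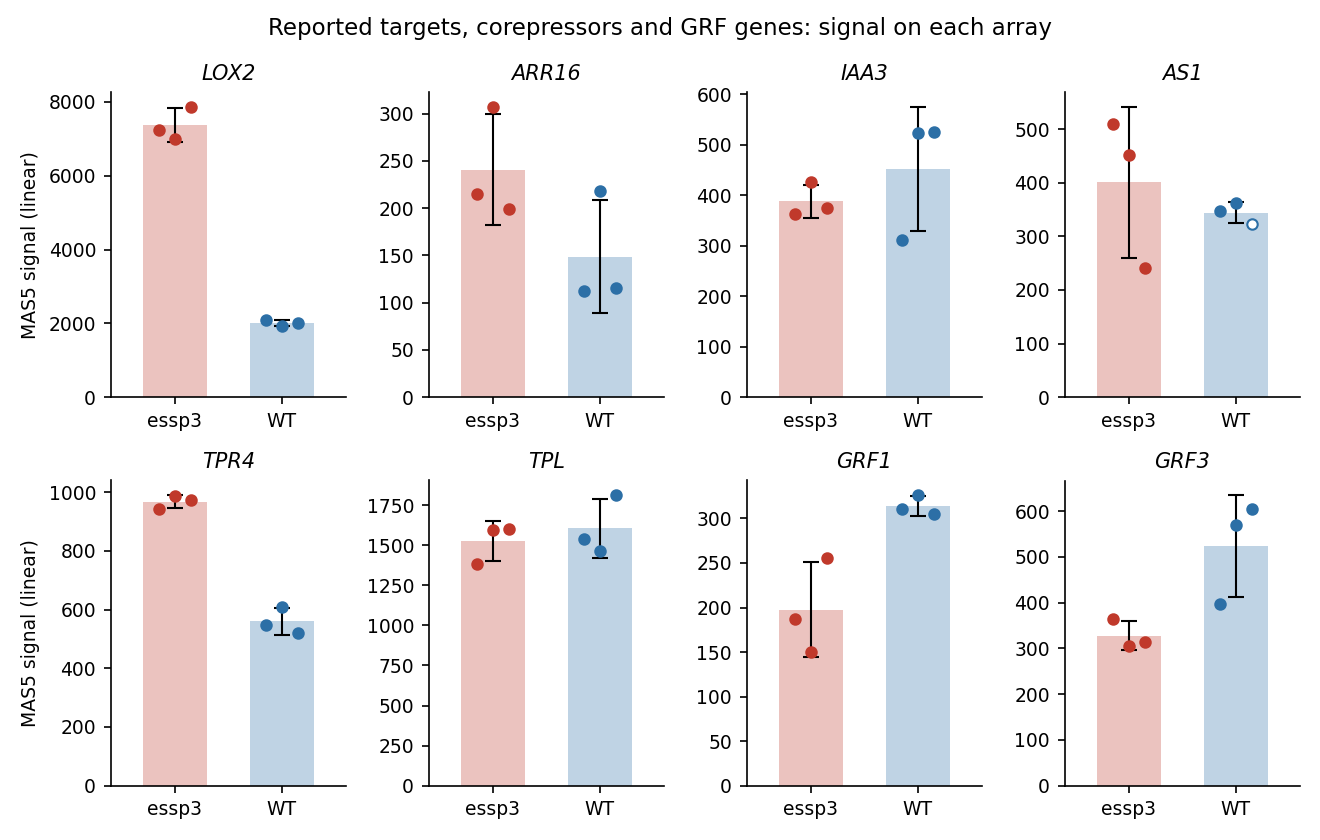
MAS5 signal (linear scale) on the 3 essp3 and 3 wild-type arrays for reported target genes (top row) and for corepressor and GRF genes (bottom row). Bars are means, error bars the SD, and the open point an array without a Present call; LOX2 and TPR4 are higher and GRF1 and GRF3 lower on every essp3 array.

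GRF genes promote cell division in leaves with their GIF coactivators, and TCP4 is known to lower them through the microRNA miR396. Of 12 GRF and GIF genes, 11 were on the array and 6 were tested. Of these, 2 fell and 0 rose, also 0 at an unadjusted p under 0.05 in limma, where 2695 of 13626 tested probe sets were higher. The 33.3% called is near the 28.4% over all tested probe sets and is no result about these genes. GRF1 read 187, 150.4 and 255 in essp3, against 311, 326 and 305 in wild type (log2 fold change -0.70, SE 0.23, adjusted p = 0.0357). GRF3 read 364, 306 and 314 in essp3, against 397, 569 and 605 in wild type (log2 fold change -0.66, SE 0.19, adjusted p = 0.0206). Both genes were lower on every essp3 array. With 1 array left out in turn, GRF1 passed without essp3 replicate 3 and in none of the other 5 fits (adjusted p up to 0.144), and GRF3 passed without essp3 replicate 1 or wild-type replicate 1 and in none of the other 4 (adjusted p up to 0.0843). GIF2 had -0.14 (adjusted p = 0.552) and GIF3 0.16 (adjusted p = 0.627). The NGATHA genes, which act beside CIN-type TCP genes to end growth at the leaf margin, gave 2 tested members of 4. Neither passed, with 1 at an unadjusted p under 0.05 in limma, where 5359 of 13626 tested probe sets had one. NGA1 had 0.49 (adjusted p = 0.125) and NGA2 0.06 (adjusted p = 0.879).

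Genes of the microRNA pathway, which forms miR319, did not pass in any of 5 tested cases, with log2 fold changes from 0.02 to 0.47. Of the 5, 0 had an unadjusted p under 0.05 in limma, against 5359 of 13626 tested probe sets. HEN1, the methyltransferase that protects microRNAs, had 0.47 (adjusted p = 0.254), the processing enzyme gene DCL1 0.19 (adjusted p = 0.484), the exporter gene HST 0.15 (adjusted p = 0.679) and AGO1, which holds the guide strand, 0.11 (adjusted p = 0.499). The level of miR319 itself was not analysed here.

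Of 7 markers of dividing cells, 6 were on the array and 4 were tested. None of the 4 passed, though 3 had an unadjusted p under 0.05 in limma, all higher in essp3. Over all tested probe sets, 5359 of 13626 had one, 2695 of them higher in essp3. The summed signal of the 6, a description with no test, ran from 1591 to 1678 on essp3 arrays and from 1124 to 1323 on wild-type arrays. All 6 had a Present call on at least 1 array, but detection was uneven. The 2 genes not tested were the cyclin genes CYCB1;1, Present on 2 essp3 arrays, and CYCB1;4, Present on 1 wild-type array. Mean signals were 79.2 in essp3 and 56.3 in wild type for CYCB1;1, and 81.5 and 83.6 for CYCB1;4. CDKB2;2 was Present on 2 essp3 arrays and 1 wild-type array. KNOLLE, a syntaxin of the dividing cell plate, had 0.44 (adjusted p = 0.0825), and the mitotic kinase genes CDKB2;2, CDKB2;1 and AUR1 had 0.61 (adjusted p = 0.0951), 0.45 (adjusted p = 0.116) and 0.30 (adjusted p = 0.302). The part of dividing cells in the TCP differences was not tested.

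For each member the tested probe set with the most similar pattern was found by Pearson's r of log2 signal over the 6 arrays, as a description, since the arrays fall into 2 genotypes. TCP13 was nearest to AT5G57960, annotated as a GTP-binding family protein (r = 0.999), and TCP3 to the ATP sulfurylase gene APS3 (r = 0.999). TCP10 was nearest to RNR2A, a small subunit of ribonucleotide reductase (r = 0.990), and TCP4 to TRN1, a gene needed for leaf patterning (r = 0.996). The nearest to TCP17 was ICK3, a cyclin-dependent kinase inhibitor gene (r = 0.991), and to TCP5 the lipid synthesis gene AT3G45040 (r = 0.998). TCP2 and TCP24 were nearest to AT3G12940 (r = 0.987) and AT3G51500 (r = 0.980), which the table gives as expressed proteins. No nearest gene was shared between members. Each r is the highest found in a search of all tested probe sets over only 6 arrays, so its size is no evidence of shared control.

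TCP13 was the member whose call held in all 6 fits with an array left out, with log2 fold changes from 0.90 to 1.14. Without 1 array the number of CIN-type TCP genes that rose was 3 in 2 of these fits and 2 in 4 of them, through the loss of TCP10 or TCP3. TCP10 ranged from 0.53 to 0.79 and TCP3 from 0.38 to 0.58, so both stayed above 0. With no moderation of the variances across probe sets, TCP13 passed (adjusted p = 0.0418), and TCP10 (adjusted p = 0.0971) and TCP3 (adjusted p = 0.0957) did not.

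**Figure D4:**
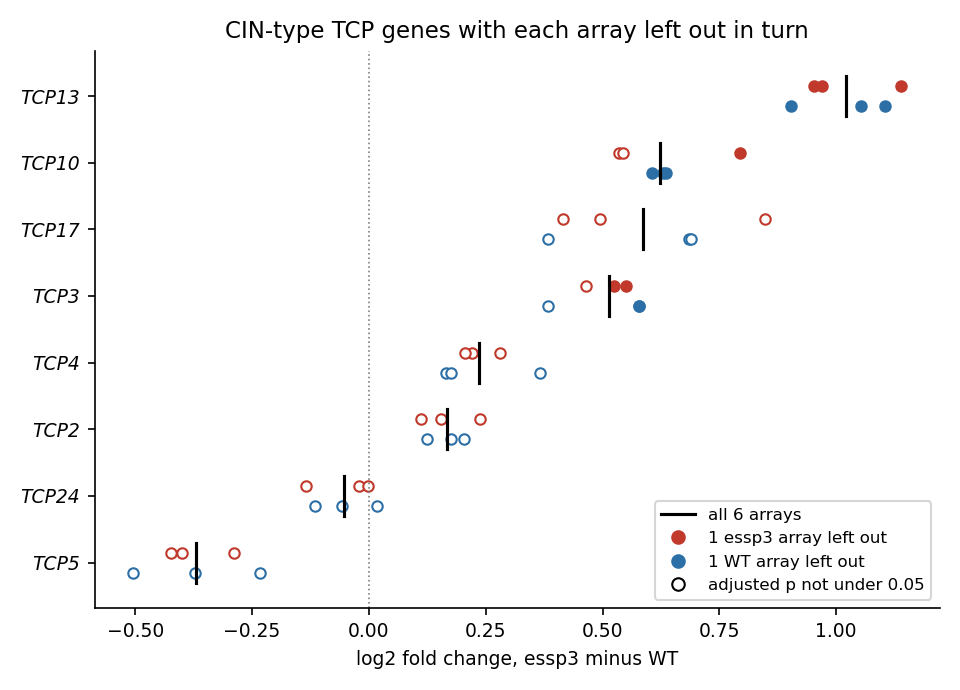
Log2 fold change (essp3 minus wild type) of each CIN-type TCP gene with 1 array left out in turn; red points leave out an essp3 array, blue points a wild-type array, open points did not pass an adjusted p of 0.05, and black ticks mark the value with all 6 arrays. TCP13 stays between 0.90 and 1.14 and passes each time.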

How the data were processed

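Total RNA of leaves was hybridised to 6 ATH1 arrays, 3 of essp3 and 3 of wild type. The authors deposited MAS5 signal intensities that were mean-scaled per array, per the file headers; each array averaged 1000 over 22808 probe sets. The submitters' processing notes name MAS5 too, without its settings. Per the file headers, the deposited table also holds MAS5 detection calls, a ratio of group means and an unpaired, unadjusted p-value. Signals of the series matrix were identical to the deposited intensities.

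The intensities were log2-transformed, without an offset. Control probe sets (62) were set aside, and 13626 probe sets Present on at least 3 of 6 arrays entered limma (version 3.58.1, under R 4.3.3), with variances moderated by eBayes along an intensity trend. Tests were two-sided, and p-values were adjusted over all 13626 by the Benjamini-Hochberg method. Precision is limited by the number of arrays, and log2 fold changes had a median SE of 0.18. Pairs of members were compared with an exact permutation test (scipy 1.17.1). The fit was tested on simulated data of 13626 probe sets with 200 changed: 94% of 2-unit and 71% of 1-unit log2 changes were recovered, and 11 of 176 calls were false. The simulation changed a far smaller share of probe sets than was called in the data, and none by less than 1 unit. It therefore does not give the recovery of changes as small as those of TCP3 and TCP10. Gene symbols came from RefSeq (TAIR10.1), which matched 22091 of 22591 locus codes; AT5G08330 is called CHE because RefSeq lists it under another TCP number.

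The members and the gene lists were chosen with earlier results of these data known. Named genes are the 8 members, up to 4 genes of each other list with the smallest adjusted p, and the nearest probe set of each member. Alternatives were the detection filter, the variance trend, moderation, array weights, quantile normalization, an offset of 50, the series matrix, a replicate block and each array left out.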

Additional observations from a re-analysis of the deposited data

How the results depend on the processing

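The count of changed probe sets was 3865 of 13626 and fell to 1580 with no moderation across probe sets, where the count of CIN-type TCP genes was 1 (TCP13), against 3; it was 2 without the variance trend, 2 or 3 with an array left out, and 3 with either other detection filter, array weights, quantile normalization, the offset, the series matrix or the replicate block. TCP3 kept its log2 fold change of 0.51 but did not pass without the variance trend (adjusted p = 0.0503) or without moderation (adjusted p = 0.0957), and TCP10 kept 0.62 but did not pass without moderation (adjusted p = 0.0971). With an array left out, TCP3 ran from 0.38 to 0.58, TCP10 from 0.53 to 0.79 and TCP24 from -0.13 to 0.017, the last turning in sign without wild-type replicate 2. TCP13 passed under all alternatives run.

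Class I TCP calls numbered 3, against 1 without the detection filter and 1 without moderation, and 0 to 2 with an array left out. Calls among GRF and GIF genes numbered 2, against 1 without the filter and 0 without moderation, and 0 to 1 with an array left out. The share called over all probe sets fell too, from 28.36% to 14.65% without the filter and 11.6% without moderation. With an array left out that share was 19.66% to 26.7%. Calls among reported targets numbered 1, and 1 to 2 with an array left out. Among 27 other named genes, 359 of 399 alternative values kept direction and side of the threshold, 32 no longer passed, 2 newly passed and 6 turned in sign. These 6 were AS1 at -0.059 and NGA2 at -0.011 without essp3 replicate 1, NGA2 at -0.064, TPL at 0.022 and RCA at 0.035 without wild-type replicate 3, and RCA at 0.0074 after quantile normalization; none had passed. With an array left out, AS1 ran from -0.059 to 0.48, NGA2 from -0.064 to 0.22, TPL from -0.13 to 0.022 and RCA from -0.25 to 0.035. The causes of these changes were not tested.

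The labels number the replicates alike, but deviations of same-numbered arrays correlated at only 0.020 to 0.032. No shared deviation by number was thus visible, which does not settle whether same-numbered samples were handled together. With the replicate number as a block, 3737 probe sets were called, and 3 CIN-type TCP genes; TCP13, TCP10 and TCP3 all passed, while CHE did not (adjusted p = 0.0588). Without the detection filter, 9 zero signals were set to the lowest positive signal of their array. MAS5 signals near background are unsteady, and among the 8 members only TCP17 lacked a Present call on an array.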
